A study of Mus musculus with 10 samples.

Results

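The genes described here are 41 listed mouse genes of cholesterol and fatty acid synthesis, found by symbol among the 41743 gene names in the deposited count files. They fall into 5 role groups: 7 enzymes of the mevalonate steps, 11 enzymes of the squalene and sterol steps, 5 regulators of the sterol-sensing transcription factors (SREBPs), 10 enzymes of the fatty acid steps, and 8 genes of sterol transport and of the liver X receptors (LXRs). The study sequenced poly-A RNA of K7M2, a mouse osteosarcoma cell line, after CRISPR/Cas9 disruption of the gene for ezrin, a protein that ties actin filaments to the plasma membrane. There were 5 lines with 2 libraries each. The T567A line was ezrin-disrupted K7M2 stably transfected with ezrin carrying alanine in place of threonine T567, a residue that can then no longer be phosphorylated. The T567D line carried ezrin with aspartate there, which mimics the phosphorylated residue, and the wild-type line carried unmutated ezrin cDNA. The empty-vector line was ezrin-disrupted and received the vector alone, and parental K7M2 cells had neither disruption nor vector. Each construct was represented by 1 stably transfected line, so an effect of a construct and a trait of its line cannot be told apart. The 4 derived lines share a tag in their titles that was read as 1 disrupted clone. A trait of that clone and an effect of the disruption therefore cannot be told apart either. The labels do not tell whether both libraries of a line are from different cultures, and p-values therefore describe spread between libraries, which may be technical.

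Cells build cholesterol from acetyl-CoA by way of mevalonate, isoprenoid diphosphates and squalene, and they build fatty acids from malonyl-CoA before elongating and desaturating them. When sterols in the endoplasmic reticulum run low, the escort protein SCAP carries the SREBP precursors to the Golgi, where proteases release factors that activate the enzyme genes; INSIG proteins hold SCAP back when sterols are plentiful. LXRs respond to the opposite state, excess sterol, by raising genes for cholesterol efflux.

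Library depth lay between 14679424 counts in T567A replicate 2 and 18230763 counts in T567A replicate 3, so that 3 counts, used as the floor of detection, equalled 0.167 to 0.207 CPM (counts scaled to a common library size with TMM factors). The floor covers counting error only. Ezr, the targeted gene, had 248 and 253 CPM in T567A libraries, 204 and 182 CPM in T567D libraries, 230 and 234 CPM in wild-type libraries, 72.4 and 72.9 CPM in empty-vector libraries and 164 and 166 CPM in parental libraries. The order of these levels fits the labels, with the empty-vector line lowest. Mitochondrially encoded genes took 1.90% and 1.44% of counts in T567A libraries, against 0.844% to 1.33% in the other libraries. The labelled osteoblast identity was met for Runx2 (32.3 to 42.6 CPM) and Col1a2 (2893 to 3530 CPM), whereas the mature osteoblast genes Sp7, Ibsp and Bglap had at most 5 counts in any library. The remaining osteoblast genes listed were uneven over the libraries. Col1a1 lay between 247 and 1827 CPM, with means of 259 CPM in wild type and 1816 CPM in parental. Spp1 lay between 165 and 313 CPM and Alpl between 1.69 and 13.9 CPM. Of genes that mark cell types with active lipid metabolism, the adipocyte genes Adipoq, Plin1, Cidec and Lep were at 0 in every library, and the adipocyte gene Fabp4 lay between 0.612 and 7.74 CPM, lowest in T567A replicate 3. Of 5 macrophage genes, Adgre1 was at 0 in every library and Ptprc had at most 6 counts, whereas Cd14 lay between 32.45 and 40.4 CPM, Cd68 between 1.795 and 2.63 CPM and Lyz2 between 0.174 and 2.25 CPM. The macrophage sum was 35.1 and 43.0 CPM in T567A libraries, against 36.2 to 40.8 CPM in the other libraries, and its part in the results was not tested. In bulk RNA, fewer cells with a transcript and less of it per cell cannot be told apart.

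Promoter sequence is shown for 5 members. Hmgcs1 was the only member whose window held TCACNCCAC, the spelling of the sterol regulatory element that was searched. Idi1, Msmo1 and Insig1 rose in T567A over wild type, as Hmgcs1 did. Ebp is a sterol enzyme gene without a call in any comparison among the derived lines. Windows from RefSeq (GRCm38.p6), running from 250 bases before to 50 bases after an annotated start, were matched by symbol for 32 of the 41 members, with 41 windows in all. No window was matched for Fdps, Fdft1, Sqle, Scd1, Scd2, Fads1, Stard4, Npc1 and Abcg1. Capitals mark TCACNCCAC, a core bound by SREBPs, and CCAAT, the box bound by NF-Y, a partner of SREBPs, on either strand. The windows are chr13:119690101-119690400 (+ strand) for Hmgcs1, chr13:8885356-8885655 (+ strand) for Idi1, chr8:64733529-64733828 (- strand) for Msmo1, chr5:28071162-28071461 (+ strand) for Insig1 and chrX:8193463-8193762 (- strand) for Ebp, each written 5′ to 3′ on its gene's strand.
Hmgcs1: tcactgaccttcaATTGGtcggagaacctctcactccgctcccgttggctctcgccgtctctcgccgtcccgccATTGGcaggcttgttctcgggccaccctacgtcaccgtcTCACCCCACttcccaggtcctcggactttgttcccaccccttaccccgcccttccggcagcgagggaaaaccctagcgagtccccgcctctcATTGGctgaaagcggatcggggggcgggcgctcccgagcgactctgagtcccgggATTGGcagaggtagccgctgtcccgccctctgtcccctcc
Idi1: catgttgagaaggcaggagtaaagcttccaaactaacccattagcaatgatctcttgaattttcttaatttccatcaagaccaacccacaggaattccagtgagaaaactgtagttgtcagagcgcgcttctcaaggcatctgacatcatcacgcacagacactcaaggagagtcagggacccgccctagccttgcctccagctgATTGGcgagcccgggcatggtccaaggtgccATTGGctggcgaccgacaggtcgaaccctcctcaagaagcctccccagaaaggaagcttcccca
Msmo1: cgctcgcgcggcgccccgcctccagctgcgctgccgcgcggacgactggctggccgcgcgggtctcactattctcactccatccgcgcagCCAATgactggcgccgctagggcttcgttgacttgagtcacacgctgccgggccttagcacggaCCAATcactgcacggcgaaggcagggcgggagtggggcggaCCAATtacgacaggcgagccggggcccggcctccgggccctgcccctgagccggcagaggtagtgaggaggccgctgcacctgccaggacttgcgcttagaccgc
Insig1: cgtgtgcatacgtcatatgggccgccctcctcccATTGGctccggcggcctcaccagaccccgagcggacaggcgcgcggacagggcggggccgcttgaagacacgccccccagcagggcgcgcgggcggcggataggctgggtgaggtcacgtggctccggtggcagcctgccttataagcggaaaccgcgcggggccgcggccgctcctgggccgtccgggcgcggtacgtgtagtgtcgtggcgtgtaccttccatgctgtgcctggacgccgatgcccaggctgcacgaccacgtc
Ebp: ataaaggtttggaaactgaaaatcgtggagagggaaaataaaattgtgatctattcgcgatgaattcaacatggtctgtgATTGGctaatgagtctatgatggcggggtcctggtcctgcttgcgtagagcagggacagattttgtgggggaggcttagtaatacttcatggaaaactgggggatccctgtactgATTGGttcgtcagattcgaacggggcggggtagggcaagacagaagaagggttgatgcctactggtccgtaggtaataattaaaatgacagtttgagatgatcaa

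The motif TCACNCCAC occurred in 1 of the 32 members with a window, against 1.44% of the 27025 genes in the promoter table and 1.23% of the tested genes in it. That match, TCACCCCAC in Hmgcs1, began at position -137 relative to the annotated start. CCAAT occurred in 24 of 32 members (75%), against 41.1% of all genes in the table and 43.9% of the tested genes in it. Among the enzymes of both sterol groups the count was 14 of 15 (93.3%), and it was 4 of 5 (80%) for the SREBP regulators. It was 4 of 7 (57.1%) for the fatty acid steps and 2 of 5 (40%) for sterol transport and LXR. A gene with several windows was counted if any of them held the box. By window, 25 of 41 (61%) held CCAAT, against 37.4% of all windows and 38.4% of windows of tested genes. The E-box CACGTG occurred in 7 of 32 members (21.9%), against 8.09% of all genes in the table and 11.9% of the tested genes in it. None of these motifs contains another, and a match describes letters in the window, not a bound site. Other spellings of the sterol regulatory element were not searched, so a window without TCACNCCAC is not shown to lack the element. Hmgcs1 held 4 CCAAT boxes and Ebp 2, so the box was present in an enzyme gene that rose in T567A over wild type and in one without a call there.

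All 41 members passed the filter on low counts, and 38 differed over the 5 lines at an adjusted p under 0.05, the threshold for a call throughout (edgeR quasi-likelihood test, Benjamini-Hochberg adjustment over 12595 genes). Of all genes tested, 78% did so. The members without a call were Insig2 (adjusted p = 0.086), Fasn (adjusted p = 0.091) and Nr1h2 (adjusted p = 0.42). The T567A line had the highest mean of 28 of the 41 members and the wild-type line the lowest mean of 19. In the mevalonate group the T567A line was highest for 6 of 7 genes and the wild-type line lowest for all 7. Of 37 tested pathway genes outside the members, 30 differed over the lines. On the per-length scale (RPKM, reads scaled by gene length and depth, as deposited), the highest levels over all libraries were those of Scd2 (73.2 RPKM), Npc2 (58.9 RPKM), Scd1 (57.8 RPKM), Fads2 (56.8 RPKM) and Fdps (53.2 RPKM). The lowest RPKM levels were those of Abca1 (0.184), Abcg1 (0.316) and Acss2 (0.594), so the efflux pumps had the lowest per-length levels of all members.

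**Figure D1:**
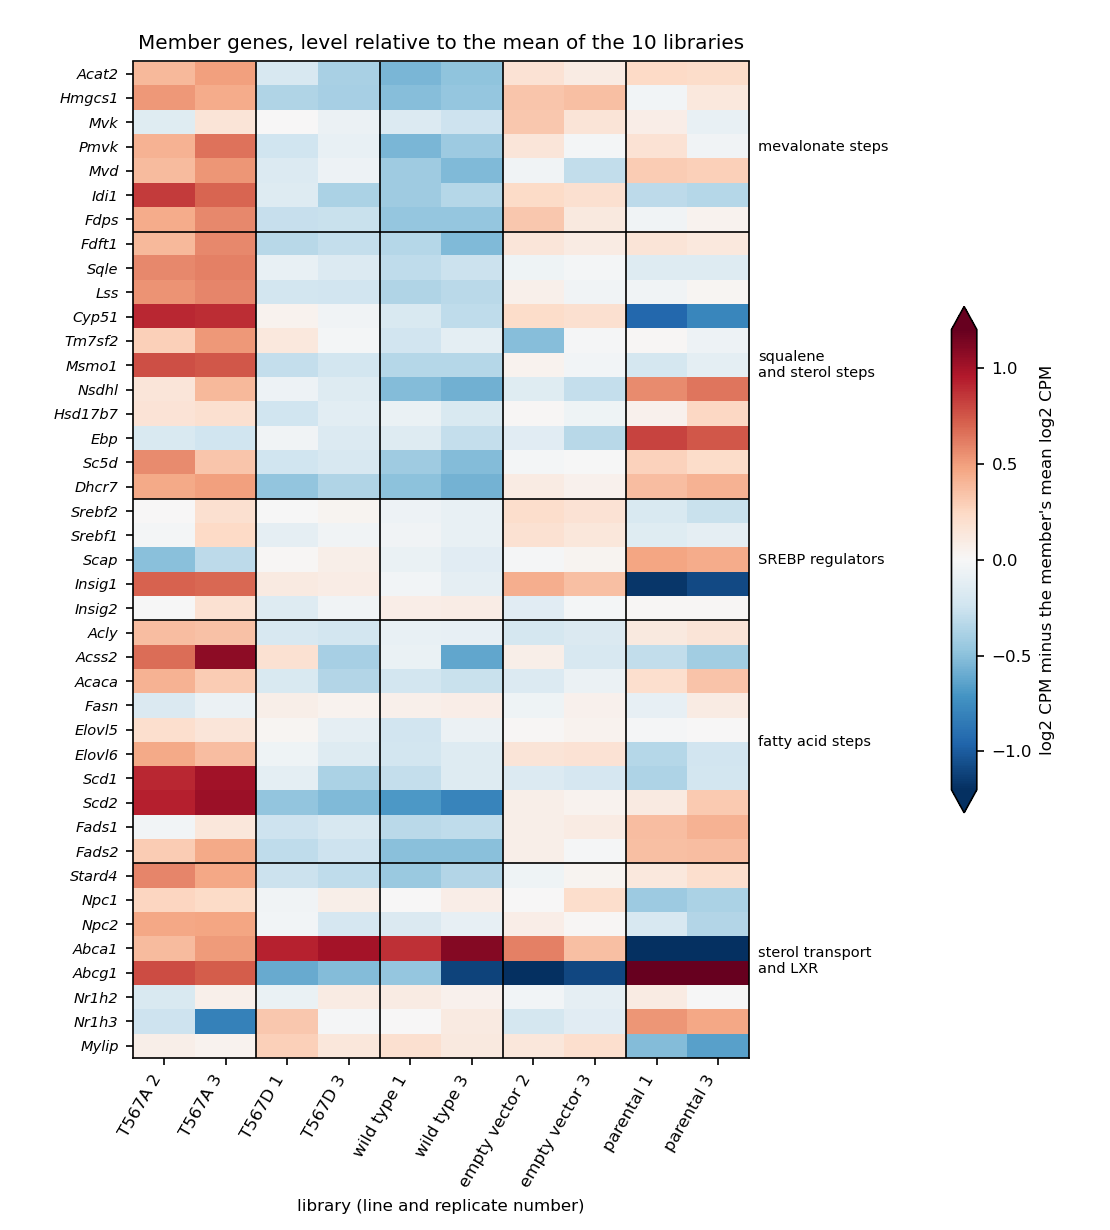
Each row is a member gene, each column a library, and colour is log2 CPM minus the gene's mean log2 CPM over the 10 libraries; colours saturate beyond the scale. The T567A columns are red for most enzymes and the wild-type columns blue, and Abca1, Abcg1, Insig1, Cyp51, Nsdhl and Ebp separate the parental columns from the others.

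T567A ezrin against wild-type ezrin compared the line whose ezrin lacks the phosphorylatable residue with the line carrying unmutated ezrin. Sterol and fatty acid enzymes were higher in the T567A line as a group: 31 of the 41 members rose and 2 fell, where 20.4% of all tested genes were higher and 19.1% lower. The median log2 change was 0.77 over the members and 0.00 over all tested genes. Of the 18 enzymes of cholesterol synthesis, 16 rose, with a median log2 change of 0.93. Of the 10 fatty acid genes, 9 rose and Fasn fell.

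Among the mevalonate steps, 6 of 7 genes rose in the T567A line. Hmgcs1, which makes the substrate of the pathway's rate-limiting reductase, had 158 and 150 CPM in T567A libraries, 85.9 and 83.9 CPM in T567D libraries, 77.5 and 80.4 CPM in wild-type libraries, 139 and 142 CPM in empty-vector libraries and 108 and 121 CPM in parental libraries. Acat2, the cytosolic acetoacetyl-CoA thiolase that starts the pathway, had 113 and 122 CPM in T567A libraries, 75.6 and 66.3 CPM in T567D libraries, 59.2 and 61.9 CPM in wild-type libraries, 97.3 and 92.7 CPM in empty-vector libraries and 102 and 101 CPM in parental libraries. For both genes the T567A libraries were the highest and the wild-type libraries the lowest, with no overlap between these lines. The log2 change in T567A over wild type was 0.97 ± 0.067 (SE) for Hmgcs1 (adjusted p = 3e-10) and 0.96 ± 0.072 for Acat2 (adjusted p = 1.1e-09).

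Pmvk, the kinase that makes mevalonate diphosphate, had 28.4 and 33.3 CPM in T567A libraries, 18.0 and 19.9 CPM in T567D libraries, 14.5 and 15.7 CPM in wild-type libraries, 23.5 and 20.9 CPM in empty-vector libraries and 23.9 and 20.6 CPM in parental libraries. Idi1, the isomerase of the C5 isoprenoid units, had 138 and 125 CPM in T567A libraries, 69.3 and 59.0 CPM in T567D libraries, 57.4 and 60.9 CPM in wild-type libraries, 90.6 and 87.9 CPM in empty-vector libraries and 62.0 and 60.7 CPM in parental libraries. Fdps, which joins these units to farnesyl diphosphate, had 319 and 348 CPM in T567A libraries, 192 and 194 CPM in T567D libraries, 170 and 169 CPM in wild-type libraries, 293 and 254 CPM in empty-vector libraries and 227 and 240 CPM in parental libraries. The T567A line was again highest for each, and the empty-vector line stood next for Idi1 and Fdps. The log2 change over wild type was 1.15 ± 0.076 for Idi1 (adjusted p = 1.4e-10), 1.04 ± 0.11 for Pmvk (adjusted p = 1.5e-07) and 0.98 ± 0.069 for Fdps (adjusted p = 3.9e-10). Mvd, the decarboxylase between them, rose by 0.94 ± 0.09 (adjusted p = 4.9e-08), but an antisense protein-coding gene model covers its locus and the strand use of the counting is not given. Mvk, the mevalonate kinase, did not pass the test, with a log2 change of 0.22 ± 0.097 (adjusted p = 0.074).

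Among the squalene and sterol steps, 10 of 11 genes rose. Cyp51, the lanosterol demethylase, had 323 and 319 CPM in T567A libraries, 177 and 168 CPM in T567D libraries, 151 and 140 CPM in wild-type libraries, 201 and 197 CPM in empty-vector libraries and 89.7 and 99.9 CPM in parental libraries. Msmo1, the C4-methyl oxidase, had 209 and 205 CPM in T567A libraries, 101 and 105 CPM in T567D libraries, 96.3 and 96.3 CPM in wild-type libraries, 126 and 120 CPM in empty-vector libraries and 106 and 112 CPM in parental libraries. In both genes the T567A libraries lay above every other library. The log2 change over wild type was 1.14 ± 0.065 for Cyp51 (adjusted p = 1.2e-11) and 1.10 ± 0.063 for Msmo1 (adjusted p = 1.1e-11). Dhcr7, which catalyses a last step to cholesterol, had 23.0 and 23.7 CPM in T567A libraries, 12.1 and 13.1 CPM in T567D libraries, 11.9 and 11.4 CPM in wild-type libraries, 18.0 and 17.4 CPM in empty-vector libraries and 21.7 and 22.5 CPM in parental libraries. Nsdhl, the C4 decarboxylase, had 40.7 and 48.2 CPM in T567A libraries, 35.4 and 33.1 CPM in T567D libraries, 25.7 and 24.7 CPM in wild-type libraries, 33.3 and 30.3 CPM in empty-vector libraries and 54.5 and 57.4 CPM in parental libraries. These genes also rose over wild type, by 1.00 ± 0.098 for Dhcr7 (adjusted p = 5.8e-08) and 0.82 ± 0.09 for Nsdhl (adjusted p = 3.3e-07), but T567A was not called different from parental for Dhcr7 (adjusted p = 0.45) and was lower than parental for Nsdhl.

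Fdft1 (squalene synthase), Sqle (squalene epoxidase), Lss (lanosterol synthase) and Sc5d (a sterol desaturase) rose by between 0.87 and 0.93 on the log2 scale. Fdft1 overlaps Ctsb on the opposite strand, so its count is less certain. Tm7sf2, a sterol C14 reductase, rose by 0.59 ± 0.2 (adjusted p = 0.025) and Hsd17b7, a keto reductase, by 0.30 ± 0.098 (adjusted p = 0.018). Neither call held when some libraries were left out. Without T567A replicate 3, wild-type replicate 1 or wild-type replicate 3 the adjusted p of Tm7sf2 was 0.17, 0.14 or 0.07, and without T567A replicate 3 or wild-type replicate 3 that of Hsd17b7 was 0.062 or 0.14. Both calls were also lost with DESeq2, at adjusted p = 0.16 for Tm7sf2 and 0.094 for Hsd17b7. Ebp, the sterol isomerase, had 25.3 and 24.3 CPM in T567A libraries, 27.8 and 25.6 CPM in T567D libraries, 25.8 and 23.5 CPM in wild-type libraries, 26.1 and 22.7 CPM in empty-vector libraries and 50.4 and 48.1 CPM in parental libraries. Its levels overlapped among the derived lines, with a log2 change of 0.01 ± 0.093 in T567A over wild type (adjusted p = 0.96).

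Of the 5 regulators, Insig1 and Srebf2 rose and Scap fell. Insig1, itself a target of SREBPs and a brake on their processing, had 147 and 145 CPM in T567A libraries, 96.7 and 95.6 CPM in T567D libraries, 87.8 and 83.4 CPM in wild-type libraries, 121 and 116 CPM in empty-vector libraries and 40.04 and 42.5 CPM in parental libraries. It rose by 0.77 ± 0.063 in T567A over wild type (adjusted p = 4.4e-09), and its 5 lines did not overlap. Scap, the escort of the precursors, had 74.0 and 84.4 CPM in T567A libraries, 106 and 110 CPM in T567D libraries, 99.0 and 95.2 CPM in wild-type libraries, 104 and 107 CPM in empty-vector libraries and 146 and 142 CPM in parental libraries. Scap fell by 0.29 ± 0.07 in T567A relative to wild type (adjusted p = 0.0022), and T567A was its lowest line.

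Srebf2, which encodes the SREBP that acts mainly on cholesterol genes, had 278 and 316 CPM in T567A libraries, 276 and 283 CPM in T567D libraries, 265 and 261 CPM in wild-type libraries, 320 and 313 CPM in empty-vector libraries and 244 and 230 CPM in parental libraries. Its log2 change in T567A over wild type was 0.18 ± 0.064 (adjusted p = 0.034), a call lost without T567A replicate 3 (adjusted p = 0.38), wild-type replicate 1 (0.13) or 3 (0.17) or either empty-vector library (0.057), with upper-quartile scaling (0.085), with no filter on low counts (0.068), in a fit of these 4 libraries alone (0.083) and with limma on RPKM (0.13). Srebf1, which encodes the SREBPs tied more to fatty acid genes, had 86.3 and 104 CPM in T567A libraries, 81.5 and 84.9 CPM in T567D libraries, 85.4 and 82.2 CPM in wild-type libraries, 99.5 and 96.4 CPM in empty-vector libraries and 79.3 and 81.2 CPM in parental libraries. The T567A libraries of Srebf1 lay above the wild-type ones, but the change of 0.18 ± 0.075 did not pass the test (adjusted p = 0.057). Insig2, the second INSIG gene, had 42.8 and 48.5 CPM in T567A libraries, 38.4 and 41.5 CPM in T567D libraries, 45.1 and 45.4 CPM in wild-type libraries, 39.1 and 42.0 CPM in empty-vector libraries and 43.2 and 43.1 CPM in parental libraries. Insig2 overlapped between T567A and wild-type libraries (log2 change 0.02 ± 0.079, adjusted p = 0.89).

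**Figure D2:**
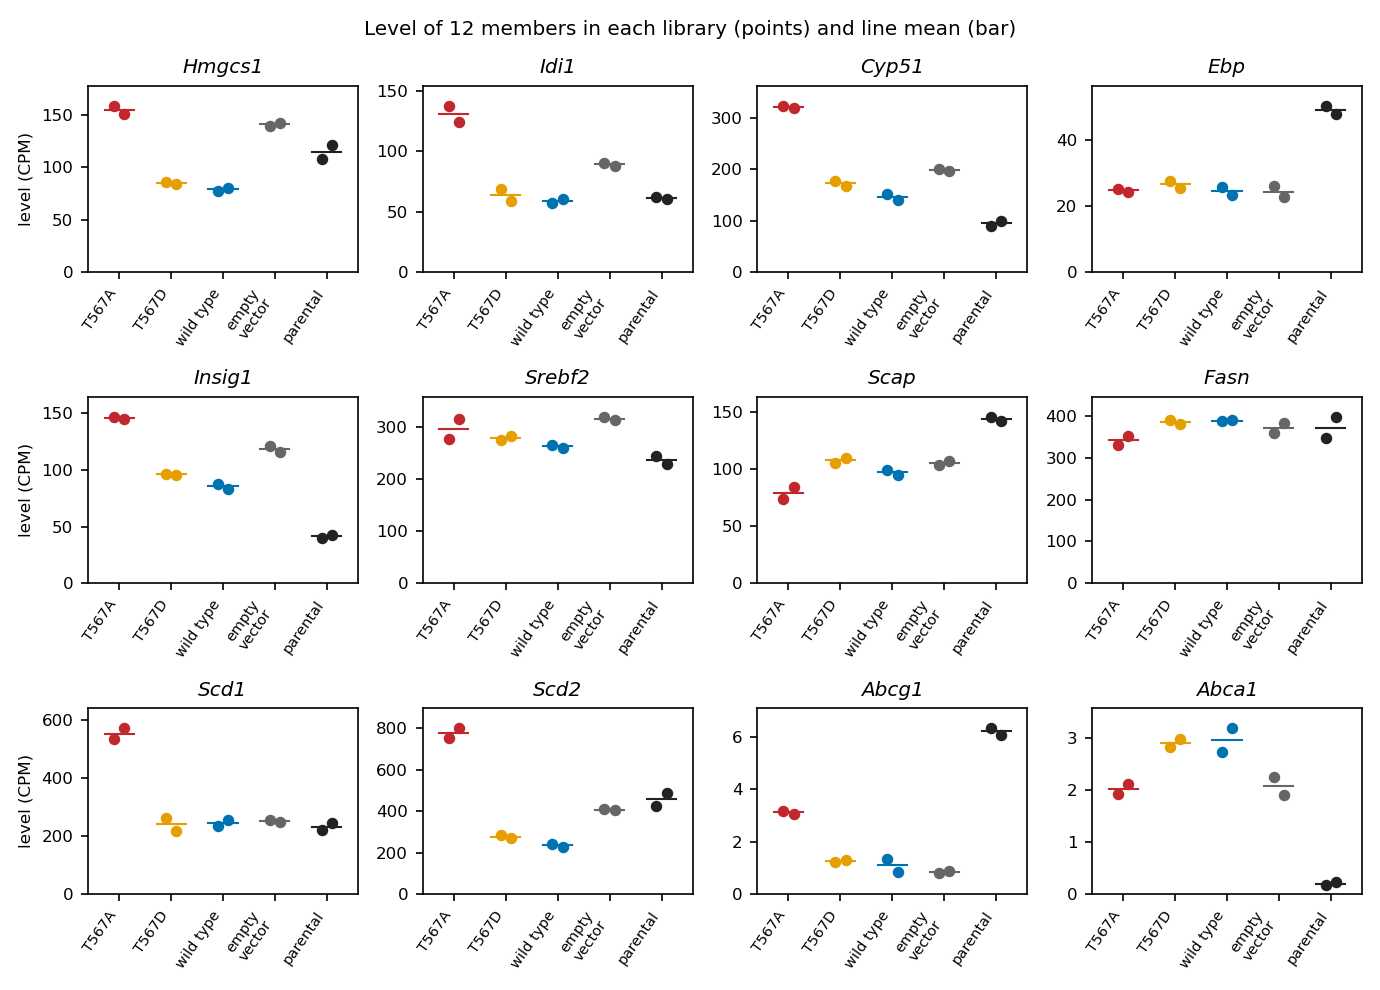
Level in CPM (vertical axis, from 0) of 12 members in each of the 10 libraries, as points, with the mean of the 2 libraries of a line as a bar; these members were picked for the plot after their values were seen. The T567A points are highest for Hmgcs1, Idi1, Cyp51, Insig1, Scd1 and Scd2 and lowest for Scap, and the parental points stand apart for Ebp, Abcg1 and Abca1.

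The largest change of any member in T567A over wild type was that of Scd2, a stearoyl-CoA desaturase that makes monounsaturated fatty acids. Scd2 (chr19:44293674-44306864, + strand, GRCm38) had 751 and 802 CPM in T567A libraries, 284 and 272 CPM in T567D libraries, 243 and 227 CPM in wild-type libraries, 412 and 404 CPM in empty-vector libraries and 423 and 490 CPM in parental libraries. Its neighbour and paralog Scd1 (chr19:44394455-44407879, - strand) had 532 and 571 CPM in T567A libraries, 262 and 218 CPM in T567D libraries, 234 and 256 CPM in wild-type libraries, 254 and 248 CPM in empty-vector libraries and 220 and 244 CPM in parental libraries. Both desaturases were highest in the T567A line, but Scd2 also separated the wild-type from the empty-vector libraries, whereas Scd1 overlapped there. The log2 change in T567A over wild type was 1.73 ± 0.069 for Scd2 (adjusted p = 5.2e-14) and 1.17 ± 0.079 for Scd1 (adjusted p = 6.9e-10).

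Acss2, which makes acetyl-CoA from acetate, had 9.67 and 12.8 CPM in T567A libraries, 6.87 and 4.62 CPM in T567D libraries, 5.76 and 3.94 CPM in wild-type libraries, 6.39 and 5.32 CPM in empty-vector libraries and 4.94 and 4.55 CPM in parental libraries. It rose by 1.22 ± 0.2 over wild type (adjusted p = 8.6e-05), and its T567A libraries lay above every other library. Acss2 overlaps Gss on the opposite strand, so its count is less certain here and in the comparisons below. Fads2 (chr19:10062765-10101746, - strand) and Fads1 (chr19:10182888-10196877, + strand) are neighbouring desaturases of polyunsaturated fatty acids. Fads2 had 241 and 268 CPM in T567A libraries, 159 and 165 CPM in T567D libraries, 139 and 138 CPM in wild-type libraries, 206 and 194 CPM in empty-vector libraries and 251 and 252 CPM in parental libraries. Fads1 had 176 and 196 CPM in T567A libraries, 151 and 157 CPM in T567D libraries, 143 and 145 CPM in wild-type libraries, 188 and 192 CPM in empty-vector libraries and 232 and 239 CPM in parental libraries. Both rose in T567A over wild type, Fads2 by 0.88 ± 0.064 (adjusted p = 5.7e-10) and Fads1 by 0.37 ± 0.064 (adjusted p = 0.0001). Acly (ATP citrate lyase, 0.46 ± 0.057), Acaca (acetyl-CoA carboxylase, 0.61 ± 0.074) and the elongases Elovl6 (0.60 ± 0.069) and Elovl5 (0.32 ± 0.068) rose as well.

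Fasn, the fatty acid synthase itself, went the other way. It had 331 and 354 CPM in T567A libraries, 391 and 382 CPM in T567D libraries, 388 and 392 CPM in wild-type libraries, 360 and 385 CPM in empty-vector libraries and 347 and 399 CPM in parental libraries. Fasn fell by 0.19 ± 0.066 in T567A relative to wild type (adjusted p = 0.028), a call lost without T567A replicate 2 (adjusted p = 0.15), wild-type replicate 1 (0.087) or wild-type replicate 3 (0.12).

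Of the 8 genes of sterol transport and LXR, 4 rose in T567A over wild type. Stard4, a carrier of cholesterol between membranes, had 99.2 and 90.9 CPM in T567A libraries, 55.3 and 53.2 CPM in T567D libraries, 48.4 and 51.6 CPM in wild-type libraries, 63.8 and 67.3 CPM in empty-vector libraries and 72.01 and 75.96 CPM in parental libraries. Stard4 rose by 0.93 ± 0.071 (adjusted p = 1.5e-09), a size close to that of the enzymes. Abcg1, an efflux pump and LXR target, had 3.18 and 3.06 CPM in T567A libraries, 1.21 and 1.29 CPM in T567D libraries, 1.34 and 0.857 CPM in wild-type libraries, 0.791 and 0.868 CPM in empty-vector libraries and 6.34 and 6.07 CPM in parental libraries. It rose by 1.5 ± 0.26 over wild type (adjusted p = 9.1e-05) at a low level. Npc2, a lysosomal cholesterol carrier, rose by 0.60 ± 0.067 (adjusted p = 3.8e-07). Its membrane partner Npc1 had a log2 change of 0.20 ± 0.078 (adjusted p = 0.044), a call lost in 18 of the 20 alternative settings tried.

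The other LXR genes gave no call in this comparison. Abca1, the efflux pump that loads apolipoprotein particles, had 1.93 and 2.12 CPM in T567A libraries, 2.83 and 2.98 CPM in T567D libraries, 2.74 and 3.20 CPM in wild-type libraries, 2.26 and 1.91 CPM in empty-vector libraries and 0.174 and 0.233 CPM in parental libraries. Mylip, a ubiquitin ligase that lowers lipoprotein uptake, had 15.3 and 15.1 CPM in T567A libraries, 17.8 and 16.1 CPM in T567D libraries, 16.7 and 15.8 CPM in wild-type libraries, 16.1 and 16.8 CPM in empty-vector libraries and 10.2 and 9.34 CPM in parental libraries. Nr1h3, which encodes LXR alpha, had 2.14 and 1.45 CPM in T567A libraries, 3.18 and 2.51 CPM in T567D libraries, 2.56 and 2.74 CPM in wild-type libraries, 2.20 and 2.31 CPM in empty-vector libraries and 3.66 and 3.50 CPM in parental libraries. The log2 changes in T567A over wild type were -0.55 ± 0.23 for Abca1 (adjusted p = 0.066), -0.10 ± 0.1 for Mylip (adjusted p = 0.48) and -0.59 ± 0.25 for Nr1h3 (adjusted p = 0.065). Nr1h2, which encodes LXR beta, had a log2 change of -0.13 ± 0.084 (adjusted p = 0.25).

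Leaving out any 1 library gave between 27 and 32 members higher in T567A than wild type, and between 14 and 17 of the 18 cholesterol enzymes. The count lower was 1 without wild-type replicate 1 or 3 and 3 without T567A replicate 3. Of the 37 other pathway genes tested, 16 rose and 2 fell, with a median log2 change of 0.12. They included Lpin1, a phosphatidate phosphatase of glycerolipid synthesis (0.85 ± 0.093), Acsl3, an acyl-CoA synthetase (0.70 ± 0.08), Nceh1, a cholesteryl ester hydrolase (0.68 ± 0.092), and Rxra, a partner receptor of LXRs, which fell by 0.25 ± 0.07. Other gene sets moved with the same contrast. All 8 interferon-response genes listed rose, with summed levels of 2655 and 2758 CPM in T567A libraries against 799 to 988 CPM in the other libraries. Of 7 proliferation genes, 3 fell in T567A relative to wild type, with sums of 1956 and 1887 CPM in T567A libraries and 2155 and 2159 CPM in wild-type libraries. The part of these sets, and of the higher mitochondrial share, in the lipid gene changes was not tested.

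Wild-type ezrin against the empty vector compared the disrupted lines with and without restored ezrin. The cholesterol enzymes were lower with wild-type ezrin: 23 of 41 members fell, where 7.36% of all tested genes were lower, and 0 rose, where 8.25% were higher. The count of 0 came from edgeR, DESeq2 and limma alike at an adjusted p under 0.05, and at an unadjusted p under 0.05 edgeR had 1 member higher. The median log2 change was -0.27 over the members and -0.01 over all tested genes. All 7 mevalonate genes fell, with a median of -0.59, and 8 of 11 squalene and sterol genes fell, with a median of -0.35.

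Hmgcs1 averaged 78.9 ± 2.02 CPM in the wild-type line and 141 ± 2.01 CPM in the empty-vector line (SD, n = 2 libraries each), and fell by 0.83 ± 0.067 on the log2 scale (adjusted p = 2.6e-08). Scd2 averaged 235 ± 11.8 CPM in the wild-type line and 408 ± 5.32 CPM in the empty-vector line, and fell by 0.79 ± 0.068 (adjusted p = 7.6e-08). Fdps fell by 0.69 ± 0.069, Acat2 by 0.65 ± 0.072, Dhcr7 by 0.60 ± 0.1 and Idi1 by 0.59 ± 0.077, each with the wild-type libraries below the empty-vector ones. Insig1 fell by 0.47 ± 0.064 (adjusted p = 3e-05), Srebf2 by 0.27 ± 0.064 (adjusted p = 0.0066) and Srebf1 by 0.23 ± 0.075 (adjusted p = 0.044). In the fatty acid group Fads2 (-0.53 ± 0.064), Fads1 (-0.40 ± 0.064) and Elovl6 (-0.36 ± 0.069) fell beside Scd2. The remaining 6 fatty acid genes did not pass the test, among them Scd1 at -0.03 ± 0.079 and Fasn at 0.07 ± 0.066. Of the transport genes Stard4 fell, by 0.39 ± 0.073.

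Between 18 and 23 members fell when any 1 library was left out. The calls of Mvd, Nsdhl, Sqle, Mvk, Srebf2 and Srebf1 were each lost when certain single libraries were left out. Where that library belongs to a compared line, 1 library of the line remains, so a call can be lost through lower precision alone. In the fits that lost the call, the log2 change lay between -0.37 and -0.19 for Mvd, against -0.31 with all libraries. For Nsdhl it lay between -0.37 and -0.27, against -0.34. With wild-type replicate 1, wild-type replicate 3 or empty-vector replicate 2 dropped, the adjusted p was 0.066, 0.18 or 0.34 for Mvd and 0.067, 0.11 or 0.17 for Nsdhl. It was 0.068 for Mvk without empty-vector replicate 2, and for Sqle 0.07 without empty-vector replicate 3 and 0.10 without wild-type replicate 1. For Srebf2 it was 0.051 or 0.065 if wild-type replicate 1 or 3 was dropped and 0.067 if empty-vector replicate 2 was, and for Srebf1 it was between 0.073 and 0.21 when any 1 library of the empty-vector, wild-type or parental lines was dropped. The Srebf1 call was also lost with RLE scaling (0.054), upper-quartile scaling (0.089), a filter of 5 CPM (0.065) and limma (0.11). With DESeq2 the adjusted p was 0.076 for Mvd and 0.1 for Srebf1. Among the other pathway genes 2 rose and 4 fell, the largest change being that of Acsl3, which fell by 0.46 ± 0.08. Of the proliferation genes 4 of 7 fell, with sums of 2155 and 2159 CPM in wild-type libraries and 2352 and 2444 CPM in empty-vector libraries, and their part in the result was not tested.

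**Figure D3:**
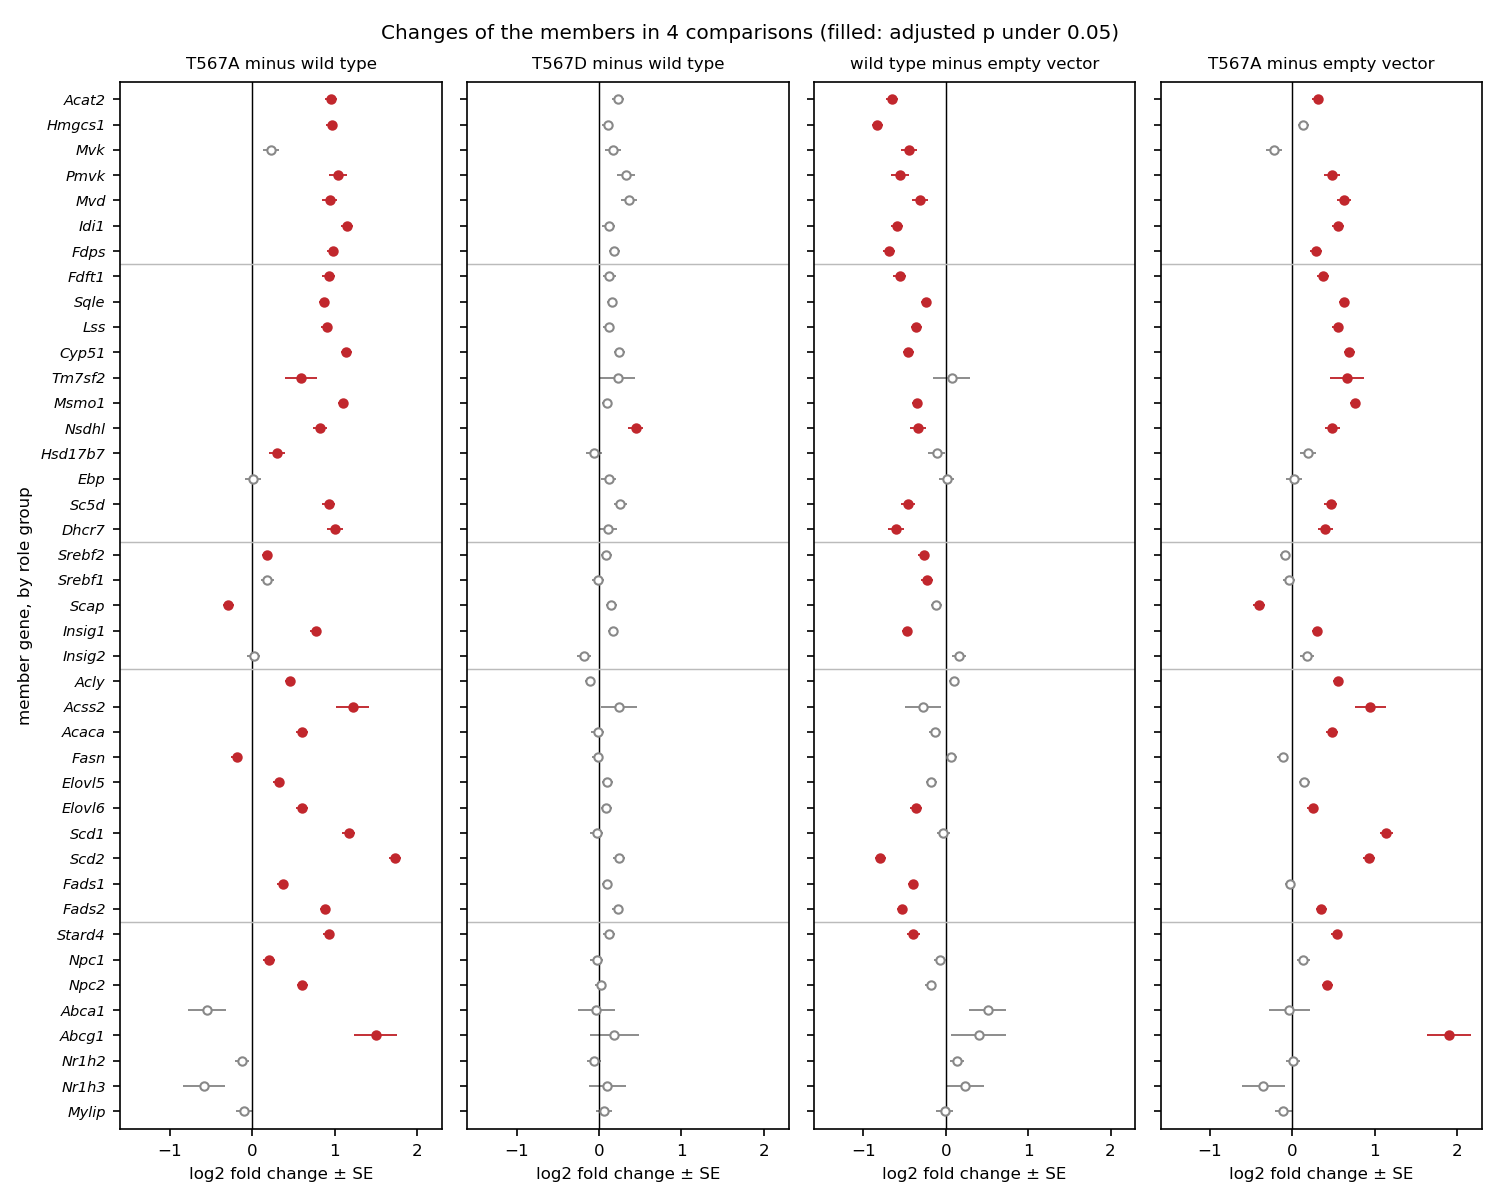
Points are log2 fold changes of the 41 members (rows, by role group) with standard errors as bars, in 4 comparisons; filled points passed an adjusted p under 0.05. Most enzymes lie right of 0 in T567A over wild type and left of 0 in wild type over empty vector, while in T567D over wild type 1 point is filled.

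T567D ezrin against wild-type ezrin gave a call for Nsdhl alone, which rose by 0.44 ± 0.092 on the log2 scale (adjusted p = 0.015). So 1 of 41 members was higher, where 0.818% of all tested genes were, and 0 were lower, where 0.524% were. At an unadjusted p under 0.05 edgeR had 12 members higher and 1 lower. The share of all tested genes at that threshold was not computed, so counts at it have no baseline here. With adjustment DESeq2 called 1 higher and 0 lower, and limma on RPKM called 0 in either direction. The Nsdhl call was lost without T567D replicate 1 (adjusted p = 0.16), wild-type replicate 1 (0.096) or wild-type replicate 3 (0.2), and with limma (0.056). The T567A and empty-vector libraries enter this comparison through the shared spread, the filter, the scaling and the adjustment. The count of members called was above 1 when any 1 of these libraries was left out. Of the 18 cholesterol enzymes 17 had a log2 change above 0, with a median of 0.16, where the median over all tested genes was 0.002. The share of all tested genes above 0 was not computed. Standard errors of these enzymes were 0.061 to 0.21 with 2 libraries a line. Hmgcs1, for example, averaged 84.9 ± 1.43 CPM in the T567D line and 78.9 ± 2.02 CPM in the wild-type line (SD, n = 2 libraries each; adjusted p = 0.63). Among the 37 other pathway genes 0 were called by edgeR, DESeq2 or limma, with 4 higher and 0 lower at an unadjusted p under 0.05 in edgeR.

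T567A and T567D ezrin, the pair of substitutions at the same residue, were also compared with each other. Here 30 members were higher in T567A, where 22.5% of all tested genes were, and 3 were lower, where 21.6% were. DESeq2 and limma on log2(RPKM + 1) each called 28 members higher. Of the members called higher, Srebf1 (0.19) lost its call in 17 of the 20 alternative settings, Npc1 in 8, Elovl5 in 3 and Hsd17b7 in 2. The median log2 change over the members was 0.58, and 15 of the 18 cholesterol enzymes rose. Scd2 averaged 777 ± 35.8 CPM in the T567A line and 278 ± 8.21 CPM in the T567D line, a log2 change of 1.48 ± 0.069 (adjusted p = 4.9e-13). The next in size were Abcg1 (1.31 ± 0.25), Scd1 (1.2 ± 0.079), Idi1 (1.03 ± 0.076), Msmo1 (1.01 ± 0.062), Acss2 (0.97 ± 0.19) and Cyp51 (0.90 ± 0.065). Scap was lower in T567A by a log2 change of -0.44 ± 0.069 (adjusted p = 2.8e-05). The other members called lower were Fasn (-0.17 ± 0.066, adjusted p = 0.037) and Nr1h3 (-0.69 ± 0.25, adjusted p = 0.027). Without T567A replicate 2, T567D replicate 1 or T567D replicate 3 the adjusted p of Fasn was 0.19, 0.13 or 0.074, and without T567A replicate 3 or T567D replicate 1 that of Nr1h3 was 0.27 or 0.19. In a fit of these 4 libraries alone it was 0.076 for Fasn and 0.055 for Nr1h3, and with DESeq2 it was 0.14 for Nr1h3. The count lower was 1 without T567D replicate 1 and 1 in the fit of these 4 libraries. Among the other pathway genes 16 rose and 2 fell. All 8 interferon-response genes rose in T567A over T567D, and 5 of 7 proliferation genes fell, with proliferation sums of 1956 and 1887 CPM in T567A libraries and 2239 and 2101 CPM in T567D libraries. The part of these sets in the lipid gene changes was not tested. This comparison shares its T567A libraries with the one over wild type, so the values are given side by side only.

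Against the empty vector, the T567A and T567D lines stood on opposite sides. In T567A over empty vector 25 members rose, where 23.7% of all tested genes were higher, and Scap fell, the 1 member lower, where 22.7% of genes were; 3 fell without T567A replicate 3 and 2 without empty-vector replicate 3. In T567D over empty vector 17 members fell, where 8.34% of all tested genes were lower, and 0 rose, where 9.43% were higher. That count of 0 held with edgeR, DESeq2 and limma, and at an unadjusted p under 0.05 edgeR had 1 member higher. Both comparisons use the same empty-vector libraries.

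The T567A line exceeded the empty-vector line for 14 of the 18 cholesterol enzymes, with a median log2 change of 0.47. Msmo1 averaged 207 ± 2.72 CPM in the T567A line and 123 ± 4.27 CPM in the empty-vector line (SD, n = 2 libraries each; log2 change 0.76 ± 0.062, adjusted p = 2.7e-09). Cyp51 (0.69 ± 0.064), Sqle (0.62 ± 0.06), Mvd (0.62 ± 0.088) and Idi1 (0.56 ± 0.074) rose likewise. The largest changes were outside the sterol enzymes: Abcg1 rose by 1.90 ± 0.27, Scd1 by 1.14 ± 0.078, Acss2 by 0.95 ± 0.19 and Scd2 by 0.93 ± 0.068. Hmgcs1, which differed most between the wild-type and empty-vector lines, did not pass the test here (0.13 ± 0.065, adjusted p = 0.099). Scap fell by 0.41 ± 0.069 (adjusted p = 5.9e-05). All 8 interferon-response genes rose and 6 of 7 proliferation genes fell in this contrast too, and their part was not tested. Of the other pathway genes 21 rose and 5 fell.

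The T567D line was below the empty-vector line for 10 of the 18 cholesterol enzymes, with a median log2 change of -0.23. Hmgcs1 fell by 0.73 ± 0.067 (adjusted p = 1.9e-07), Scd2 by 0.55 ± 0.068 (adjusted p = 9.1e-06), Fdps by 0.50 ± 0.069 (adjusted p = 3.2e-05) and Idi1 by 0.48 ± 0.077 (adjusted p = 0.0002). Insig1 fell by 0.30 ± 0.063 (adjusted p = 0.0022). The count of 17 was 11 without T567D replicate 3 or without empty-vector replicate 2, and without that empty-vector library 6 of the 18 cholesterol enzymes fell. Of the other pathway genes 4 rose and 3 fell.

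Against parental cells, the derived lines changed the members in mixed directions. In the empty-vector line 14 members rose and 14 fell, where 27.4% of all tested genes were higher and 27.2% lower, and the median log2 change was 0.00. In the wild-type line 5 rose and 21 fell over parental, where 27.7% and 28.5% of all tested genes did. In the T567A line 25 rose and 6 fell, where 31.4% and 30.7% did, and in the T567D line 8 rose and 19 fell, where 27.1% and 28.2% did. The median log2 change over the members was -0.23 for wild type, 0.33 for T567A and -0.22 for T567D. These comparisons share the parental libraries.

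Insig1 and Cyp51 were higher than parental in every derived line. Insig1 rose by 1.82 ± 0.068 in T567A, 1.22 ± 0.068 in T567D, 1.05 ± 0.069 in wild type and 1.52 ± 0.068 in empty vector. Cyp51 rose by 1.76 ± 0.067 in T567A, 0.86 ± 0.067 in T567D, 0.62 ± 0.067 in wild type and 1.07 ± 0.067 in empty vector. Ebp showed the opposite, with log2 changes of -0.99 ± 0.087 in T567A, -0.88 ± 0.085 in T567D, -1.0 ± 0.086 in wild type and -1.01 ± 0.086 in empty vector. Nsdhl was lower than parental by -0.33 ± 0.084 in T567A, -0.71 ± 0.085 in T567D, -1.15 ± 0.088 in wild type and -0.81 ± 0.086 in empty vector, all called. Enzyme genes of the squalene and sterol steps thus stood on opposite sides of the parental level, Cyp51 above it and Ebp and Nsdhl below. Mylip and Npc1 were higher than parental in all 4 derived lines, by log2 changes of 0.64 to 0.79 for Mylip and 0.42 to 0.65 for Npc1. Scap was lower in all 4, by -0.86 ± 0.069 in T567A and between -0.57 and -0.42 in the others.

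By the ratio of the highest to the lowest line mean, the efflux pumps varied most among the members. Abca1 had 28 and 38 counts in T567A libraries, 49 and 51 counts in T567D libraries, 47 and 56 counts in wild-type libraries and 40 and 33 counts in empty-vector libraries, against 3 and 4 counts in parental libraries. The ratio of its scaled counts over parental was 9.98 (exact 95% binomial interval 4.58 to 25.8) in T567A, 14.3 (6.67 to 36.4) in T567D, 14.6 (6.82 to 37.1) in wild type and 10.2 (4.73 to 26.4) in empty vector, where the intervals cover counting error only. Abcg1, its partner in efflux, was lower than parental instead. It averaged 3.12 ± 0.081 CPM in T567A, 1.25 ± 0.0515 CPM in T567D, 1.10 ± 0.341 CPM in wild type, 0.829 ± 0.0539 CPM in empty vector and 6.20 ± 0.189 CPM in parental cells (SD, n = 2 libraries each). The log2 changes over parental were -0.99 ± 0.19, -2.30 ± 0.22, -2.49 ± 0.23 and -2.89 ± 0.24 in T567A, T567D, wild type and empty vector. Abca1 and Abcg1, both LXR targets, thus differed from parental cells in opposite directions in each derived line.

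**Figure D4:**
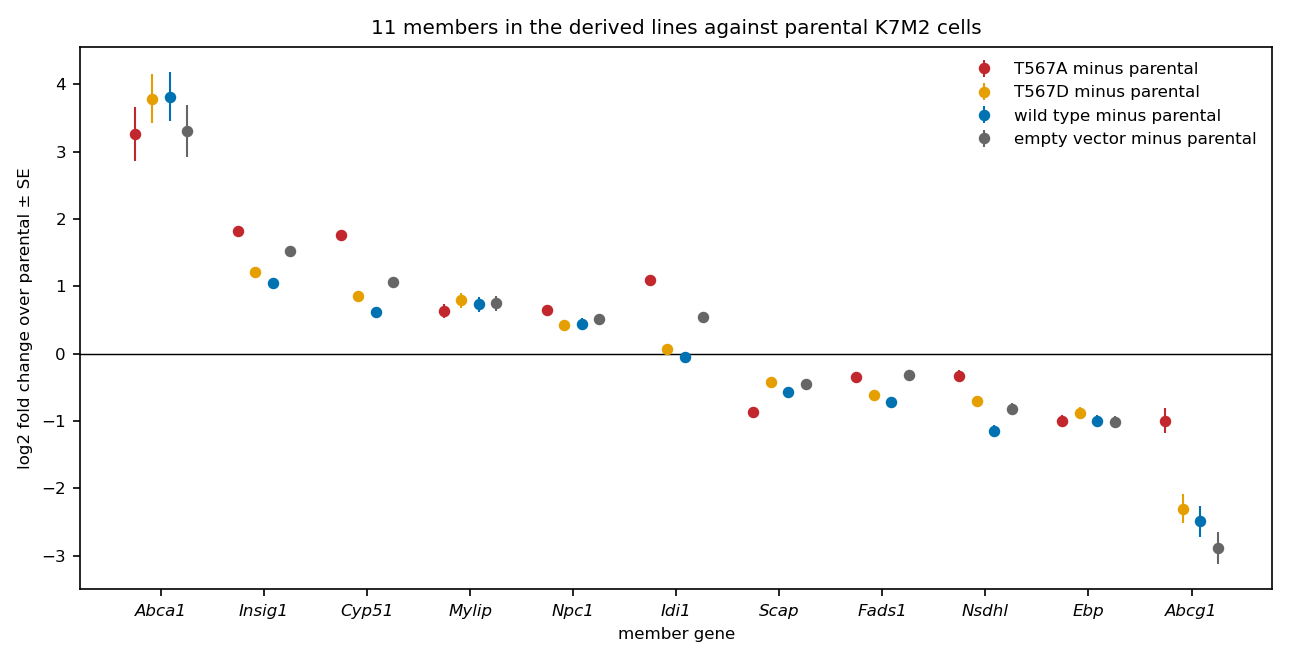
Log2 fold change over parental cells (vertical axis, with standard errors) of 11 members in the T567A, T567D, wild-type and empty-vector lines; these members were picked for the plot after their values were seen. Abca1, Insig1 and Cyp51 lie above 0 and Ebp and Abcg1 below 0 in all 4 lines, and Idi1 lies near 0 in T567D and wild type; the fitted value of Abca1 rests on 3 and 4 counts in parental libraries.

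Several fatty acid members were below parental in the derived lines. Fads1 fell in each, by 0.34 ± 0.063 in T567A, 0.61 ± 0.063 in T567D, 0.71 ± 0.063 in wild type and 0.31 ± 0.063 in empty vector. Fads2 had log2 changes of -0.64 ± 0.063 in T567D, -0.86 ± 0.064 in wild type and -0.33 ± 0.063 in empty vector, all called, but one of 0.02 ± 0.062 in T567A (adjusted p = 0.8). Scd1 rose over parental in T567A, by 1.25 ± 0.079 (adjusted p = 5.8e-11), and in the other lines its log2 changes lay between 0.05 and 0.11 and did not pass the test. Idi1 rose by 1.10 ± 0.076 in T567A and by 0.54 ± 0.077 in empty vector, and had log2 changes of 0.06 ± 0.079 in T567D and -0.05 ± 0.079 in wild type that did not pass the test. Among the other pathway genes, Lipa, the lysosomal acid lipase that frees cholesterol, rose in each derived line, by 1.84 ± 0.072 in T567A, 1.49 ± 0.073 in T567D, 1.5 ± 0.073 in wild type and 1.32 ± 0.073 in empty vector. The counts of other pathway genes higher and lower than parental were 17 and 8 in T567A, 11 and 9 in T567D, 12 and 14 in wild type and 11 and 9 in empty vector.

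The lines were also ordered by the summed level of the 18 cholesterol enzymes, in which abundant genes weigh most. The sum was 1981 and 2025 CPM in T567A libraries, 1186 and 1157 CPM in T567D libraries, 1043 and 1029 CPM in wild-type libraries, 1504 and 1424 CPM in empty-vector libraries and 1301 and 1336 CPM in parental libraries. No 2 lines overlapped in this sum, and the T567D line was nearest to the wild-type line. The place of empty vector above parental was not shared by the enzymes as a group. Of the 18, 6 were higher and 5 lower in empty vector than parental, with a median log2 change of -0.01. Cyp51 alone averaged 199 CPM in empty vector and 94.8 CPM in parental cells. For the 10 fatty acid genes the sum was 2673 and 2813 CPM in T567A libraries, 1710 and 1628 CPM in T567D libraries, 1594 and 1614 CPM in wild-type libraries, 1891 and 1908 CPM in empty-vector libraries and 1989 and 2163 CPM in parental libraries. The T567A line was highest in both sums, and the place of parental cells differed, between empty vector and T567D for the cholesterol enzymes and next to T567A for the fatty acid genes. Scd1 and Scd2 weigh much in the fatty acid sum. Over the 10 fatty acid genes, 6 were higher and 1 lower in T567A than parental, with a median log2 change of 0.20.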

How the data were processed

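Poly-A RNA of 10 libraries was sequenced (DNBSEQ), per the labels' protocols with a library kit that marks the strand. The authors deposited raw counts per gene name and RPKM values for each library. GRCm38 is the genome build, per the submitters' processing notes. Aligner, counter and strand use in counting: not given in the sources used here. Counts of members that overlap other genes, among them Mvd, Fdft1, Cyp51, Tm7sf2, Acss2 and Npc1, are therefore uncertain. Groups and replicate numbers come from the sample titles. Total counts were 14679424 to 18230763 per library, and 0 rows named no gene. The 2 libraries of each line differed by more than sampling noise (chi-square per degree of freedom 2.09 to 6.63).

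The deposited counts entered edgeR 4.0.16 (R 4.3.3): filterByExpr (minimum count 10, minimum total 15) kept 12595 genes, TMM scaled the libraries, and all 10 entered 1 robust quasi-likelihood fit with 5 line means and 5 residual degrees of freedom. Log2 changes are the first line named minus the second, p-values are two-sided with Benjamini-Hochberg adjustment over all tested genes, and a call is an adjusted p under 0.05. CPM uses TMM-scaled library sizes. Counts were also simulated, with 200 genes changed in T567A and the others equal over the lines. On these counts of 12369 genes for T567A minus wild type, the fit found 78% of the 1.5-fold and 88% of the 2-fold changes. It made 176 calls, of which 10 were false. In the data 2574 genes were called higher and 2409 lower in this comparison, so these shares need not hold there. The settings varied were scaling (RLE, upper quartile), the tool (DESeq2 1.42.0), other filters, a replicate block, only the 4 libraries compared, limma 3.58.1 on log2(RPKM + 1) and log2(RPKM + 0.1), an adjusted p under 0.01, and leaving out each library.

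The members, the lists of other pathway genes and markers and the tests were chosen with earlier results of these data known. Values in every library are given for the 5 members of each role group with the widest span between line means, and for every SREBP regulator and Fasn; from the other pathway lists, called genes with the largest change are named. Fasn was added after its values were seen. Gene positions come from GENCODE M21 and promoter windows from RefSeq (GRCm38.p6). Figures were drawn with matplotlib 3.10.9.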

Additional observations from a re-analysis of the deposited data

How the results depend on the processing

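No change that passed the test, as reported or under an alternative, reversed its direction. Of 8170 member values recomputed, 132 changed sign, and in none of these did either value pass the test. Of the 8170, 7820 kept their side of the threshold, 281 lost a call and 69 gained one. For T567D over wild type the count of members called, 1, became 4 with no filter on low counts, 3 in a fit of the 4 libraries compared, 0 with limma at either pseudocount, 0 at an adjusted p under 0.01, and 0 to 5 when a library was left out. For T567D over empty vector the count of 17 ranged from 11 to 19 when a library was left out. Between lines that share both replicate numbers, these did not pair the samples (same-numbered deviations correlated at -0.0995 to -0.00742). Lines that share 1 number were not checked. With the replicate number as a block the count for T567D over empty vector was 10. The total of calls in each other comparison stayed within 1.5 times its value under each alternative. Counts in 1 direction moved further where they were small. The count lower was 2 for T567A over wild type and 0 to 3 under the alternatives, 3 for T567A over T567D and as low as 1, and 1 for T567A over empty vector and up to 3. Calls kept under every alternative numbered 27 of 33 for T567A over wild type, 17 of 23 for wild type over empty vector, 27 of 33 for T567A over T567D, 23 of 26 for T567A over empty vector and 10 of 17 for T567D over empty vector. Against parental cells they numbered 27 of 31 for T567A, 22 of 27 for T567D, 24 of 26 for wild type and 20 of 28 for empty vector. The causes were not tested. Depth limits Abca1, with 3 and 4 counts in parental libraries, Abcg1, with 14 to 109, Nr1h3, with 26 to 63, and Tm7sf2, with 40 to 83 counts over the libraries. With 2 libraries a line, a change that did not pass the test is not shown to be absent.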
